A study of Rattus norvegicus with 23 samples.

Results

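The miR-148 and miR-152 family and the miR-130 and miR-301 family were followed in rat PC12 cells, a line derived from a pheochromocytoma of the adrenal medulla and often used to study neuroendocrine secretion and neurite growth. Members were all entries of the sRNAbench read-count table named rno-miR-148a, rno-miR-148b, rno-miR-152, rno-miR-130a, rno-miR-130b, rno-miR-301a or rno-miR-301b, from either arm of the hairpin, and the rule used no measured value. This gave 14 of the 413 entries of the table. Of these, 10 had enough counts to be tested, out of 269 tested entries in all. The rat prefix rno- is left out of names below.

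Small RNA came from PC12 cells stably expressing α1ACT or carrying an empty vector, each taken 6 h, 24 h, 3 d or 10 d after the cells were split. α1ACT is a transcription factor encoded by the calcium channel gene CACNA1A, and the construct used here was the pcDNA3 plasmid with α1ACT of 11 glutamine repeats and a C-terminal 3xFlag tag. The vector line carried pcDNA3 alone, and both lines had been selected with G418. There were 3 libraries of the α1ACT line at each time, and of the vector line 2 at 6 h and 3 at each other time, 23 in all. The series asked which miRNAs α1ACT regulates. Whether replicates were separate cultures is not said in the labels, and p-values therefore rest on a spread between libraries that may be technical. How many clones make up each line is not given either, so a line and its clones cannot be told apart.

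Animal miRNAs guide Argonaute proteins to messenger RNAs that pair with the seed, a short stretch near the 5′ end of the miRNA, and lower the output of those messengers. Each hairpin can give a miRNA from its 5p arm and another from its 3p arm, and one of them is usually far more abundant. In human cells the miR-148 and miR-152 family is known for repressing DNA methyltransferases, and the miR-130 and miR-301 family for repressing PPARγ and components of TGF-β signalling.

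The mature sequences below are shown because they define the families: the 3p arms printed for each family share a seed, while the 5p arms do not follow the same grouping. They come from RefSeq (assembly GRCr8), which had a mature sequence for 12 of the 14 members, run 5′ to 3′, and carry the seed, bases 2 to 8, in capitals. RefSeq had none for miR-148b-5p and miR-301a-3p, so the seed of miR-301a-3p is not shown. Those of miR-130a-5p and miR-148a-5p are not printed.
miR-148a-3p: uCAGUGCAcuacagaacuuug
miR-148b-3p: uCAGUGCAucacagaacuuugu
miR-152-3p: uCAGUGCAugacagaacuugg
miR-130a-3p: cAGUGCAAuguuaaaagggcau
miR-130b-3p: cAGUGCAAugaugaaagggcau
miR-301b-3p: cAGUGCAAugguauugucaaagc
miR-152-5p: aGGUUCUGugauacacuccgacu
miR-130b-5p: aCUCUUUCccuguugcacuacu
miR-301a-5p: gCUCUGACuuuauugcacuac
miR-301b-5p: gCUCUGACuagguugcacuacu

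Outside the seed, the close members differ at few positions, counted from 1 at the 5′ end. Over 21 compared bases, with the base of miR-148b-3p written first, miR-148a-3p differs from it by U9C and C10U and miR-152-3p by C10G and U20G. Over 22 bases, with the base of miR-130a-3p first, miR-130b-3p differs from it by U11A and A13G, so reads of these pairs are told apart by 2 bases. The 5p seeds of miR-301a and miR-301b are both CUCUGAC, whereas miR-130b-5p has CUCUUUC and miR-152-5p has GGUUCUG. In the RefSeq annotation Mir148b lies within Copz1 and Mir152 within Copz2, genes for subunits of the COPI vesicle coat. Mir301a overlaps Ska2 and Prr11, and Mir301b and Mir130b lie within 10 kb of each other.

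Library depth ran from 448557 counts in vector 3 d replicate 1 to 5070120 in α1ACT 10 d replicate 1. Levels are given in CPM, which are counts relative to the library total after scaling with TMM factors. PCR reads without molecular identifiers are not independent molecules, and in these bulk samples fewer cells of a kind and less RNA per cell cannot be told apart. The neuroendocrine miRNAs miR-375, miR-7a, miR-182, miR-183 and miR-96 were all present, with a summed level of 147000 to 210000 CPM in α1ACT libraries and 166000 to 222000 in vector libraries. Blood and serum miRNAs summed to 0 to 10.3 CPM in α1ACT libraries and 0 to 7.78 in vector libraries, and muscle miRNAs to 0 to 0.383 and 0 CPM. The table has entries for 4 of 5 blood and serum markers, 1 of 4 muscle markers and 4 of 5 mesenchymal and endothelial markers. Mesenchymal and endothelial miRNAs summed to 398 to 889 CPM in α1ACT libraries and 502 to 1450 in vector libraries, and their part in the results was not tested. In a second count table made with Chimira, the columns named for replicate 2 of the vector line at 6 h and at 10 d were each closest to the sRNAbench counts of the other, while the other 21 libraries matched their own name. The sRNAbench names were kept, and results that rest on this pair are also given with the pair exchanged or left out.

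The members together took 1.05% ± 0.0788 of the counts of an α1ACT library (SD, n = 12) and 1.07% ± 0.0542 of a vector library (SD, n = 11). miR-301a-3p, which in human tumour cells is known for repressing NKRF, a repressor of NF-κB, led with 45.4% of all member counts. It was followed by miR-130a-3p, known in human endothelial cells as a repressor of the homeobox genes GAX and HOXA5, with 18.8%. miR-148b-3p had 10.8%, miR-130b-3p 8.69%, miR-152-3p 6.46% and miR-130b-5p 4.59%. The 3p arms of the miR-130 and miR-301 family summed to 7699 ± 709 CPM in α1ACT libraries and 8200 ± 463 in vector libraries, and those of the miR-148 and miR-152 family to 1757 ± 96.3 and 1914 ± 212 CPM.

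Ordered by mean level, miR-301a-3p stood at 4618 ± 577 CPM in the α1ACT line and 5046 ± 304 in the vector line (SD, n = 12 and n = 11 here and in this paragraph). miR-130a-3p had 1982 ± 101 CPM in the α1ACT line and 1925 ± 253 in the vector line, and miR-148b-3p 1092 ± 76.1 and 1195 ± 184. The first places of the order were clear, since the ranges of miR-301a-3p, miR-130a-3p and miR-148b-3p over the 23 libraries did not overlap. miR-130b-3p followed with 871 ± 118 CPM in α1ACT and 977 ± 143.5 in vector libraries, and miR-152-3p with 665 ± 52.4 and 719 ± 73.8. Neighbours were less separated here: miR-148b-3p was above miR-130b-3p in 20 of 23 libraries, and miR-130b-3p above miR-152-3p in 21 of 23, with overlapping ranges. miR-130b-5p, at 489 ± 75.7 CPM in α1ACT and 501 ± 94.8 in vector libraries, was above miR-301b-3p in every library without overlap. miR-301b-3p had 228 ± 35.6 CPM in α1ACT and 252 ± 32.2 in vector libraries, miR-148b-5p 159 ± 27.4 and 174 ± 24.2, and miR-152-5p 113 ± 15.2 and 133.2 ± 20.5. The ranges of these neighbours overlapped, although each was above the next in all 23 libraries. miR-301a-5p was the lowest tested member, at 17.0 ± 4.17 CPM in the α1ACT line and 17.6 ± 3.89 in the vector line.

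**Figure D1:**
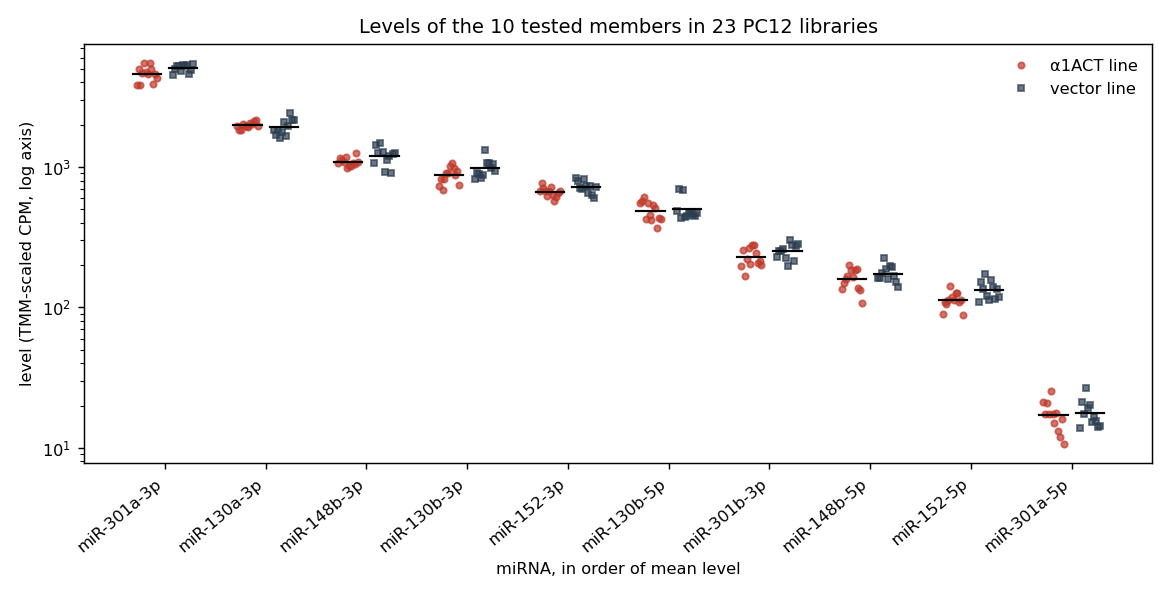
Level of each of the 10 tested members in every library, in TMM-scaled CPM on a log axis; circles are α1ACT libraries, squares are vector libraries and bars are the mean of each line. The members span from 17.0 CPM for miR-301a-5p to 4618 CPM for miR-301a-3p in the α1ACT line, and the points of the lines overlap for every member.

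The other 4 members were too low to be tested. miR-148a-3p, whose human counterpart is abundant in liver and known for repressing DNMT1, had 44 counts over all libraries, 32 in the α1ACT line and 12 in the vector line. No library had more than 6 counts of it, and it was listed at 0 in 3 of 12 α1ACT and 7 of 11 vector libraries. miR-148a-5p was listed at 0 in all 23 libraries. miR-130a-5p had 8 counts in the α1ACT line and 14 in the vector line, and miR-301b-5p had 54 and 46. The table holds no value of 1 among its 9499 values, and 458 values of 2, so a 0 there may be a single read. The Chimira table, which does hold values of 1, gave miR-148a-3p 71 counts in the α1ACT line and 42 in the vector line, and miR-148a-5p 1 count and 0.

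Between the lines, log2 fold changes of the α1ACT line over the vector line were small and mostly below zero, and 1 member, miR-152-5p, passed the test. Taken as the mean of the 4 times, 34 of 269 tested miRNAs differed at a Benjamini-Hochberg adjusted p under 0.05 in edgeR's quasi-likelihood test, 18 higher and 16 lower in α1ACT. That is 12.6% of those tested, against 1 of 10 members, which is near this background. The log2 fold change was negative for 9 of 10 members, with a median of -0.13, whereas it was negative for 49.8% of all tested miRNAs, with a median of 0.00. The members were measured in the same libraries, and several of them vary together, as given below. They are therefore not independent observations, and this count of signs was not tested. With upper-quartile factors or library totals in place of TMM, 7 of 10 members were negative, with members' medians of -0.04 and -0.06. A change of scaling shifts all miRNAs by nearly the same amount. The gap of 0.13 to the median of all miRNAs was therefore bound to stay under each scaling and is no separate support.

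**Figure D2:**
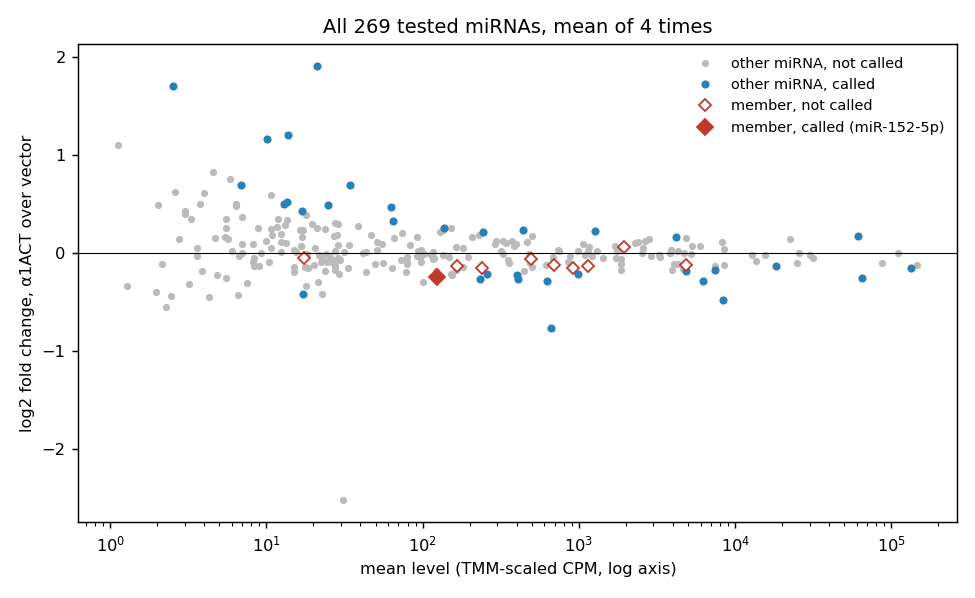
Log2 fold change of the α1ACT line over the vector line, averaged over the 4 times, against mean level for the 269 tested miRNAs; diamonds are the 10 tested members and coloured points other miRNAs that were called. The members lie close to the zero line, 9 of them below it, and the filled diamond is miR-152-5p.

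The member that passed was rno-miR-152-5p, the minor arm of a hairpin that sits in Copz2 and whose 3p arm is known in human cells for repressing DNMT1. At 6 h its level was 89.3, 108.5 and 105.6 CPM in the α1ACT libraries, against 110 and 151 in the vector libraries. At 24 h it was 113.6, 142.5 and 118.7 CPM in α1ACT against 134, 173 and 121 in vector, and at 3 d 113, 127 and 127 against 112, 156 and 140. At 10 d it was 109, 113 and 88.6 CPM in α1ACT libraries, against 114, 135 and 119 in vector libraries. All α1ACT libraries were thus below all vector libraries at 6 h and 10 d, while the ranges overlapped at 24 h and 3 d. How many of all tested miRNAs separate in this way was not counted. Ranges without overlap, here and below, therefore describe the libraries and are not a test. The fitted log2 fold change was -0.25 (SE 0.0804), a fold of 0.843, with an adjusted p of 0.0457 in edgeR's quasi-likelihood test. These levels rest on 50 to 569 counts per library. The call is at the edge of the threshold: it was kept in 10 of 36 alternative analyses. Among these, 23 left out a single library, and the call was kept in 5 of them, with an edgeR adjusted p of 0.0518 to 0.184 in the others. The log2 fold change stayed negative throughout, between -0.31 and -0.16. With the doubtful vector pair exchanged the log2 fold change was -0.24 (edgeR adjusted p = 0.0943), and with it left out -0.17 (edgeR adjusted p = 0.264).

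The main arm of the same hairpin, miR-152-3p, did not pass. It had 678, 766 and 707 CPM in α1ACT libraries at 6 h, against 831 and 788 in vector libraries. At 24 h it had 673, 623 and 676 CPM in α1ACT against 705, 702 and 819 in vector, and the lines did not overlap at either time. At 6 h this rests on the doubtful pair: with it exchanged the ranges overlapped, and the log2 fold change of -0.18 became 0.0028 (edgeR adjusted p = 0.988). The lines overlapped at 3 d and 10 d, and the mean log2 fold change was -0.12 (edgeR adjusted p = 0.132). miR-148b-3p, of the same seed, was lower without overlap at 24 h, at 1090, 1176 and 978 CPM in α1ACT libraries against 1257, 1482 and 1273 in vector libraries, but overlapped at the other times. Its mean log2 fold change was -0.13 (edgeR adjusted p = 0.171), and that of miR-148b-5p -0.13 (edgeR adjusted p = 0.182). Like miR-152-5p, miR-148b-5p was lower without overlap at 6 h and 10 d as named. With the doubtful pair exchanged, its ranges overlapped at 6 h.

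In the miR-130 and miR-301 family, miR-130b-3p came nearest to the threshold, with a log2 fold change of -0.15 (SE 0.0545, edgeR adjusted p = 0.0688). Human miR-130b is known for repressing the p53 target TP53INP1. In these cells miR-130b-3p in all α1ACT libraries was below all vector libraries at 6 h, with 729, 818 and 684 CPM against 822 and 909, and at 3 d, with 1008, 1059 and 991 CPM against 1318, 1062 and 1075. They overlapped at 24 h and 10 d, and the 1318 CPM belongs to the shallow library of the vector line. miR-301a-3p stood at a log2 fold change of -0.13 (edgeR adjusted p = 0.135) and miR-301b-3p at -0.15 (edgeR adjusted p = 0.182), and both were lower without overlap at 10 d alone. miR-130a-3p was the exception in sign, with a log2 fold change of 0.06 (edgeR adjusted p = 0.465); it was higher without overlap at 24 h, at 2022, 1970 and 1948 CPM in α1ACT libraries against 1841, 1605 and 1771 in vector libraries. The 5p arm rno-miR-130b-5p stood at a log2 fold change of -0.06 (edgeR adjusted p = 0.679) and miR-301a-5p at -0.05 (edgeR adjusted p = 0.861). As named, miR-130b-5p was lower without overlap at 10 d alone, and miR-301a-5p overlapped at every time. With the doubtful pair exchanged, both were higher without overlap at 6 h.

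At single times no member was called by edgeR, DESeq2 or limma-voom. At an unadjusted edgeR p under 0.05 there were 1, 1, 0 and 3 of 10 members at 6 h, 24 h, 3 d and 10 d, beside 11.2%, 10.4%, 8.92% and 14.9% of all tested miRNAs. Calls were rare among all miRNAs at these times too, with 0%, 0.372%, 0.372% and 1.49% of the 269 tested. From 6 h to 10 d the members had median log2 fold changes of -0.17, -0.10, -0.07 and -0.20, beside 0.03, 0.00, 0.02 and -0.01 for all tested miRNAs. The values at 6 h and 10 d include the doubtful pair, and medians with it exchanged were not taken. At 6 h single members ran from -0.36 (miR-152-5p) to 0.18 (miR-301a-5p) as named. With the pair exchanged they ran from -0.33 (miR-130b-3p) to 0.50 (miR-301a-5p). With upper-quartile factors, which moved the median of all miRNAs to 0.22 at 6 h and 0.12 at 24 h, the members' medians at these times were 0.03 and 0.01. The gap between members and all miRNAs can hardly change with the scaling.

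**Figure D3:**
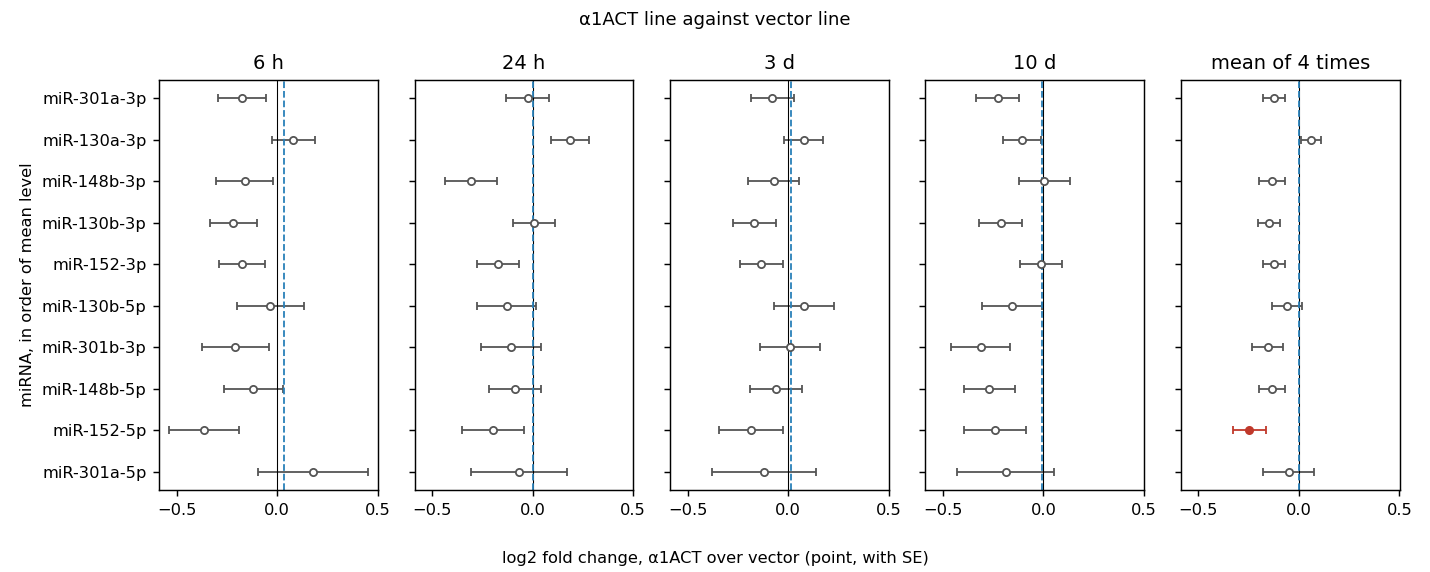
Log2 fold change of the α1ACT line over the vector line for the 10 tested members at single times and averaged over them, with standard errors; the dashed line is the median of all 269 tested miRNAs and the filled point is the member that passed the test. Most points lie left of the dashed line, and in the right-hand panel miR-152-5p is farthest from it at -0.25.

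Some members changed with time after splitting, at a share no higher than among all miRNAs. Over both lines, 161 of 269 miRNAs (59.9%) changed over the 4 times in edgeR's F test, and 5 of 10 members did: miR-130b-3p, miR-148b-5p, miR-130a-3p, miR-130b-5p and miR-301a-5p. The count of 5 became 2 with the doubtful pair exchanged or in the Chimira table, and 8 with the replicate number as a block. This F test spans 4 times while the test between lines is a single contrast, so their counts are not compared. Within the α1ACT line 42% of miRNAs and 2 of 10 members changed, and within the vector line 36.8% and 2 of 10. The interaction of line and time was called for 0% of miRNAs by edgeR, with 10 of 269 and no member at an unadjusted p under 0.05. DESeq2 called 2 miRNAs for it and limma-voom 0, and no member was called by either tool.

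The main arm of miR-130b was highest at 3 d in both lines. Its means at 6 h, 24 h, 3 d and 10 d were 744 ± 68.1, 871 ± 48.0, 1019 ± 35.7 and 851 ± 101 CPM in the α1ACT line (SD, n = 3 each). The vector line had 865 ± 61.4, 867 ± 26.6, 1152 ± 144.4 and 987 ± 55.9 CPM (SD, n = 2 at 6 h and 3 at the other times). In each line the 3 libraries of 3 d lay above those of every other time. edgeR's adjusted p was 0.000228 over both lines, 0.00849 in the α1ACT line and 0.0111 in the vector line. The call over both lines held in all 36 alternatives. The call in the vector line was lost without the shallow vector 3 d replicate 1 (edgeR adjusted p = 0.0769) and with the doubtful pair exchanged (0.0617), and that in the α1ACT line with upper-quartile factors (0.103).

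miR-148b-5p was higher at the middle times. In the α1ACT line its means were 148.2 ± 12.6, 184 ± 16.9, 178 ± 11.6 and 125.9 ± 15.7 CPM at 6 h, 24 h, 3 d and 10 d, and in the vector line 161 ± 0.129, 195 ± 24.8, 183.3 ± 20.9 and 152.2 ± 13.8. In the α1ACT line the 3 libraries of 10 d lay at 136.8, 133.1 and 107.9 CPM, below all 6 libraries of 24 h and 3 d. Its adjusted p in edgeR's F test was 0.000338 over both lines and 0.00343 in the α1ACT line, and the call over both lines also held in all 36 alternatives. The adjusted p in the vector line was 0.0835.

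miR-130b-5p, the minor arm of miR-130b, fell between 6 h and 10 d in the α1ACT line. In the α1ACT line it had 551, 573 and 606 CPM at 6 h, 430, 552 and 455 at 24 h, 419, 539 and 511 at 3 d, and 366, 437 and 428 at 10 d. In the vector line it had 489 and 691 CPM at 6 h, 437, 688 and 443 at 24 h, 446, 474 and 469 at 3 d, and 457, 447 and 466 at 10 d. All libraries of 10 d were below all those of 6 h in each line, but in the vector line the ranges overlapped with the doubtful pair exchanged. The high vector values were 1 library at 6 h and 1 at 24 h. For 10 d against 6 h in the α1ACT line this was a log2 fold change of -0.49 (SE 0.148), a fold of 0.710 and an edgeR adjusted p of 0.0147. It was the one member of 10 called in that comparison, where 27.1% of all miRNAs were called. This call was kept in 36 of 37 alternatives and lost without α1ACT 10 d replicate 1 (-0.42, edgeR adjusted p = 0.0881). In the vector line the log2 fold change was -0.37 (edgeR adjusted p = 0.142), and with the doubtful pair exchanged it was 0.20. Within a line, miR-130b-5p did not pass edgeR's F test over the 4 times, with adjusted p-values of 0.0518 (α1ACT) and 0.201 (vector). Over both lines in the Chimira table, miR-130b-5p had an adjusted p of 0.608 in that test. Its change over the 4 times in both lines had an edgeR adjusted p of 0.0107, which became 0.669 with the pair exchanged, 0.0665 with it left out and 0.0757 without vector 6 h replicate 2 alone.

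miR-130a-3p was the member called at 10 d against 6 h in the vector line, where 11.9% of all miRNAs were called. It had 2419, 2156 and 2153 CPM at 10 d against 1845 and 1694 at 6 h, without overlap as named, a log2 fold change of 0.34 (SE 0.107, edgeR adjusted p = 0.0316). This rests on the doubtful pair: the ranges overlapped and the log2 fold change was 0.06 with the pair exchanged (edgeR adjusted p = 0.993), 0.18 with it left out (0.576) and -0.0085 in the Chimira table as named (0.995). Leaving out any of vector 6 h replicates 1 and 2, vector 10 d replicates 1 and 2 or α1ACT 6 h replicate 3 also ended the call. In the α1ACT line it had 2132, 2165 and 1949 CPM at 10 d and 1947, 1823 and 1843 at 6 h, a log2 fold change of 0.15 (edgeR adjusted p = 0.241). Its F test over time gave an edgeR adjusted p of 0.0111 in the vector line and 0.0107 over both lines, which became 0.368 and 0.319 with the pair exchanged.

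miR-301a-5p, the lowest tested member, had means of 19.8, 20.2, 15.4 and 12.8 CPM over the 4 times in the α1ACT line. Its means in the vector line were 17.5, 21.1, 17.3 and 14.6 CPM. There the 10 d libraries overlapped those of 6 h as named, and lay above them with the pair exchanged or left out. In the α1ACT line all libraries of 10 d were below those of 6 h, with a log2 fold change of -0.62 (SE 0.245, edgeR adjusted p = 0.0616). That change was not called, but it was called in 10 of 37 alternatives. For 10 d against 6 h in the vector line, miR-301a-5p had a log2 fold change of -0.25 (edgeR adjusted p = 0.609). The sign of this vector value differed in 4 of 37 alternatives. miR-301a-5p changed over time in both lines together (edgeR adjusted p = 0.0226, and 0.0964 with the pair exchanged), on 9 to 64 counts per library. That call was lost without vector 24 h replicate 2, α1ACT 24 h replicate 2 or α1ACT 10 d replicate 1, at adjusted p-values from edgeR of 0.0506 to 0.0664. miR-152-3p had means of 717, 657, 641 and 644 CPM over the 4 times in the α1ACT line and 810, 742, 704 and 650 in the vector line, with an edgeR adjusted p of 0.0549 over both lines. miR-152-5p gave 0.120 in the same test, miR-301a-3p 0.0661, miR-301b-3p 0.180 and miR-148b-3p 0.278.

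**Figure D4:**
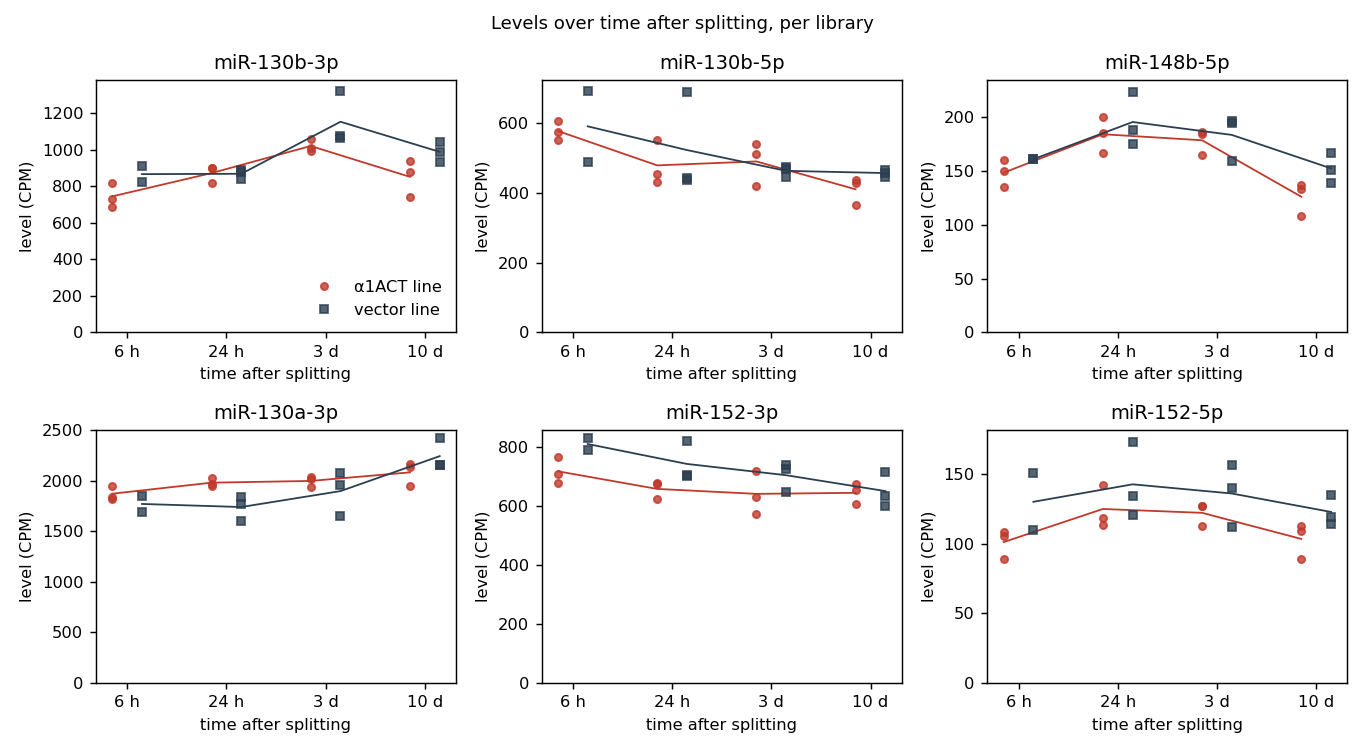
Level of 6 members in CPM by time after splitting, from 6 h to 10 d; each point is a library, with circles and left-hand points for the α1ACT line and squares for the vector line, and lines join the group means. miR-130b-3p peaks at 3 d in both lines, while miR-130b-5p in the α1ACT line is lowest at 10 d, at a mean of 410 CPM.

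The share of the 5p arm separated the hairpins into those that gave both arms and those that gave nearly all reads from the 3p arm. miR-130b was the most even, with 36.0% ± 5.42 of its reads from the 5p arm in α1ACT libraries and 34.0% ± 5.85 in vector libraries (SD, n = 12 and n = 11). miR-152 had 14.6% ± 2.34 in α1ACT and 15.7% ± 2.65 in vector libraries, and miR-148b 12.8% ± 2.24 and 12.9% ± 1.91. In miR-301a the 5p arm took 0.371% of reads in the α1ACT line and 0.348% in the vector line, in miR-301b 0.813% and 0.781%, and in miR-130a 0.0146% and 0.0267%. The miR-130a and miR-130b hairpins, whose 3p arms share a seed, thus stood at opposite ends of this range. No difference in share between the lines exceeded the spread between libraries.

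In the α1ACT line the 5p share of miR-130b was highest at 6 h. From 6 h to 10 d it was 43.7% ± 2.95, 35.4% ± 2.35, 32.4% ± 2.60 and 32.6% ± 3.66 in the α1ACT line. The vector line had 40.3% ± 4.16, 37.2% ± 6.86, 28.8% ± 3.08 and 31.7% ± 1.69. No order of times is read from the vector line, since with the doubtful pair exchanged its share was 36.1% at 10 d and 33.6% at 6 h, and with the pair left out 32.5% at 10 d and 37.3% at 6 h, beside 37.2% at 24 h. The share of miR-148b took another course, with 11.7%, 14.6%, 14.7% and 10.0% in the α1ACT line and 11.6%, 12.7%, 14.5% and 12.2% in the vector line. These shares were not tested and are given as a description.

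**Figure D5:**
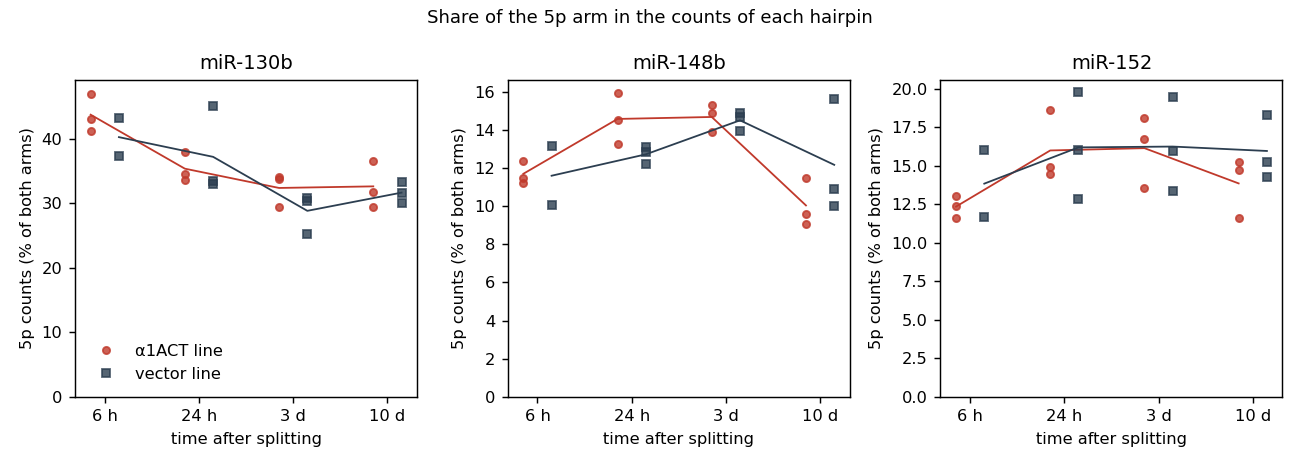
Share of the 5p arm in the counts of both arms of miR-130b, miR-148b and miR-152, in percent, at each time after splitting; each point is a library, with circles for the α1ACT line and squares for the vector line, and lines join the group means. The 5p arm of miR-130b takes 32.6% at 10 d and 43.7% at 6 h in the α1ACT line, and the lines overlap at most times.

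The arms of miR-152 and of miR-130b did not follow each other over the 23 libraries, as a description without a test. The Spearman correlation between miR-152-5p and miR-152-3p was -0.147, and that between miR-130b-5p and miR-130b-3p was -0.119. It was 0.132 between the arms of miR-148b and 0.265 between those of miR-301a. Among members, miR-152-5p was most like miR-148b-5p, at 0.755, followed by miR-301a-3p at 0.736 and miR-301b-3p at 0.694. miR-130b-5p was most like miR-301a-5p, at 0.542. Among the 212 other miRNAs that averaged 10 CPM or more, the closest to miR-152-5p were miR-30e-5p at 0.723, miR-872-5p at 0.706 and miR-203a-3p at 0.687. Closest to miR-130b-5p were miR-674-3p at 0.709, miR-484 at 0.667 and let-7d-3p at 0.648. All these values share the same libraries, scaling factors and times.

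The 5 letters GUGCA are common to both family seeds, and of the 381 entries with a RefSeq sequence 3 others hold them in bases 2 to 8: miR-19a-3p and miR-19b-3p, both with the seed GUGCAAA, and the untested miR-143-5p. Between the lines the log2 fold change of miR-19a-3p was -0.42 (SE 0.216, adjusted p by edgeR 0.201) and that of miR-19b-3p -0.22 (SE 0.219, adjusted p by edgeR 0.557).

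Other miRNAs linked to the targets of the miR-148 and miR-152 family were set beside the members. Taken from either arm, 12 tested entries came from hairpins whose miRNAs are known in human cells for repressing DNA methyltransferases. These were the miR-29 family, miR-126a, miR-143, miR-185 and miR-342. The entries include minor arms, for which this repression is not claimed. Of the 12, 1 was called between the lines as the mean of the 4 times, lower in α1ACT, beside 12.6% of all tested miRNAs. It was miR-143-3p, also among the mesenchymal miRNAs above, with a log2 fold change of -0.76 (edgeR adjusted p = 0.000140). The median of the 12 was 0.01, beside -0.13 for the 10 tested members of both families and 0.00 for all tested miRNAs. Over time in both lines 10 of the 12 changed, minor arms among them, beside 59.9% of all tested miRNAs.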

How the data were processed

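Small RNA libraries of PC12 cells were made from a miRNA-enriched fraction with an Illumina small RNA protocol, per the labels' protocols. The authors deposited whole-number read counts per mature miRNA, with no normalization, in a table named for sRNAbench with 413 named entries and a second one named for Chimira. The submitters' processing notes name edgeR; the aligner and genome build are not stated in the sources used here. Columns were matched to libraries by name, reading "control" as the vector line and "WT" as the α1ACT line, and 12 further columns per table belong to none of the samples and were not used. An entry without a name in the sRNAbench table, with 0 counts (0%), was left out.

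The deposited counts went into edgeR 4.0.16 (R 4.3.3): filterByExpr by group (minimum count 10), TMM factors, 1 mean per group over all 23 libraries, robust quasi-likelihood F tests and Benjamini-Hochberg adjustment over all 269 tested entries, with calls at an adjusted p under 0.05. The biological coefficient of variation was 16.1%. A standard error is the log2 fold change divided by the root of its F value. Alternatives were other scalings and filters, DESeq2 1.42.0, limma-voom (limma 3.58.1), the Chimira table, a replicate block, the compared groups fitted alone, each library left out, and the doubtful pair exchanged or left out. Chosen after seeing the data were the Chimira table with the pair exchanged, leaving out the pair with vector 3 d replicate 1, and the ranges and arm shares with the pair exchanged or left out. Likeness used Spearman correlations of log2 CPM.

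Members, lists and comparisons were chosen with earlier results of these data known. Named miRNAs were all members, the 3 most alike non-members of miR-152-5p and miR-130b-5p, and, as an example, a called member of a list. miR-19a-3p, miR-19b-3p and miR-143-5p were named outside this rule, for their seeds. One further list that had been chosen is not reported here. Replicates were checked for duplicated libraries: the chi-square per degree of freedom between replicates was 22.8 to 229 over 22 pairs. The fitting steps were tested on simulated data. Sequences and gene neighbours came from RefSeq tables of assembly GRCr8, matched by name. Depth ran from 448557 to 5070120 counts per library and limits the low members most.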

Additional observations from a re-analysis of the deposited data

How the results depend on the processing

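Counts of called members depended on the setting, and the cause was not tested where no value shows it. For the mean of the 4 times the count, 1 of 10, was 0 with upper-quartile factors, library totals, no low-count filter, the Chimira table, the doubtful pair exchanged or left out, the Chimira table with the pair exchanged, and the pair and vector 3 d replicate 1 left out; DESeq2 gave 2, and leaving out 1 library gave 0 to 3. The miR-152-5p call outlived leaving out α1ACT 6 h replicate 2, α1ACT 3 d replicate 2, vector 6 h replicate 1, vector 24 h replicate 3 or vector 3 d replicate 1, and no other single library. Without α1ACT 6 h replicate 2, miR-130b-3p (-0.17) and miR-301a-3p (-0.16) were called as well (edgeR adjusted p = 0.0362 each). All miRNAs called numbered 34, against 16 to 40 with 1 library left out and 14 to 48 otherwise, and higher against lower calls were 43 against 5 with upper-quartile factors and 36 against 5 with library totals.

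At 10 d against 6 h in the α1ACT line the count of 1 became 2, with miR-301a-5p, under upper-quartile factors, limma-voom, the replicate block, the pair left out and the pair and vector 3 d replicate 1 left out, and 0 to 2 with 1 library left out. In the vector line the count of 1 became 2 under RLE factors, upper-quartile factors, library totals, a mean CPM of at least 10, DESeq2, the replicate block and the Chimira table with the pair exchanged. It became 0 with no low-count filter, the Chimira table, the groups fitted alone, the pair exchanged, the pair left out, and the pair and vector 3 d replicate 1 left out, and 0 to 1 with 1 library left out; miR-130a-3p reversed to -0.0085 in the Chimira table. There, all miRNAs called numbered 32 in the sRNAbench table and 0 to 60 in the alternatives that kept all libraries or dropped the pair.

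Over time, the count of 2 in the α1ACT line became 6 with the replicate block and 4 with the pair and vector 3 d replicate 1 left out, and 2 to 4 with 1 library left out. Only the larger changes of the counts over time are listed. In the α1ACT line miR-130b-5p was also called with library totals, no low-count filter, the groups fitted alone or the pair left out. Upper-quartile factors there added miR-130b-5p and miR-301a-5p and lost miR-130b-3p. The count of 2 in the vector line became 0 with the Chimira table, the pair exchanged, and the pair and vector 3 d replicate 1 left out, and 1 with the groups fitted alone or the pair left out; it was 1 to 3 with 1 library left out. The count of 5 over both lines became 2 with the Chimira table or the pair exchanged and 8 with the replicate block, and was 4 to 7 with 1 library left out. No member was called at a single time or for the interaction in any alternative run. The groups fitted alone have no value for the mean of the 4 times, both lines over time or the interaction.

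Same-numbered libraries did not pair: 4 of 11 pairs had a correlation over 0.1, in a range of -0.551 to 0.538, so the replicate block rests on a shared number alone. In the Chimira table miR-148a-3p averaged 2.30 CPM in the α1ACT line and 1.35 in the vector line, against 1.05 and 0.373 in the sRNAbench table. miR-148a-5p averaged 0.0445 in the α1ACT line, and miR-301a-5p 24.3 in the α1ACT line and 26.1 in the vector line. The 5p share of miR-301a was 0.533% in the α1ACT line and 0.525% in the vector line. Depth limits the 4 untested members and miR-301a-5p most.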
